A study of Rattus norvegicus with 352 samples.

Results

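The comparison described here sets brain libraries with a low level of RT1-CE16, a class I gene of the rat major histocompatibility complex on chromosome 20, against libraries with a high level of it. A level is log2 of CPM plus 1, where CPM are estimated counts scaled to a library total of 1000000. Libraries were selected on the measured level of RT1-CE16: those under 1.5 were taken as low and those of at least 4.5 as high (n = 71). The low group holds 31 libraries more than the high group, so that low libraries are 29.8% and high libraries 20.8% of all libraries in the expression table. The other 49.4% lie between the thresholds, are called intermediate and are described only. Because RT1-CE16 was used to choose the libraries, its own difference is given without a test.

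The samples are whole brain hemispheres of naive, untreated outbred rats of the heterogeneous stock, a population bred from several inbred strains for the mapping of genetic traits. PolyA RNA was sequenced with a directional kit, and no age, sex, genotype, treatment or time separates samples in the labels, so the low, intermediate and high libraries share all labelled conditions. Of the samples in the labels, 10 are not analysed here. Whether every library comes from a different rat is not stated, so p-values rest on the spread between libraries, which may be partly technical, and any kinship among the rats was not modelled.

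Class I molecules are cell surface proteins that pair with beta-2 microglobulin (B2m) and show peptides from inside the cell to CD8 T cells and natural killer cells. In the rat the complex is called RT1: the RT1-A genes are the classical class I genes, the many genes of the C/E and M regions are mostly non-classical, and their number and sequence differ between strains. Class II genes, which present peptides to CD4 T cells, and the class III genes of complement, cytokines and heat shock proteins lie between the class I clusters. In brain, class I and class II transcripts are low and come largely from microglia, endothelium and other non-neuronal cells, although neurons can express class I.

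RT1-CE16 spans chr20:3261656-3265548 on the minus strand of the GRCr8 assembly, with its start site at the higher coordinate. The 250 bases before the start site used in the RefSeq promoter table are shown for RT1-CE16, which defined the libraries, for RT1-CE15, its neighbour and the gene of largest difference, and for RT1-CE12, which differed in the other direction. They lie at chr20:3265444-3265693, chr20:3283771-3284020 and chr20:3347226-3347475 on the minus strand, and each window ends inside the annotated gene body, since the annotated gene extends farther upstream. Capitals mark motif matches.
RT1-CE16: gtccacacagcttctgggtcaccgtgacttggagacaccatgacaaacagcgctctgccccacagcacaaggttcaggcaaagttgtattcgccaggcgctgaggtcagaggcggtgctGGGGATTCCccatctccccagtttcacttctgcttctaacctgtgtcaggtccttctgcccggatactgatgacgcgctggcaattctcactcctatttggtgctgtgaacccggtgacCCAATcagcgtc
RT1-CE15: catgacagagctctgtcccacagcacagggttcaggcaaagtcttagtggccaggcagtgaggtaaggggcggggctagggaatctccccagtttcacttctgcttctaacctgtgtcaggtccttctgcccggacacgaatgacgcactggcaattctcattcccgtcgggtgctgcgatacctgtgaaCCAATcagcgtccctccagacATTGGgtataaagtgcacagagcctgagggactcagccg
RT1-CE12: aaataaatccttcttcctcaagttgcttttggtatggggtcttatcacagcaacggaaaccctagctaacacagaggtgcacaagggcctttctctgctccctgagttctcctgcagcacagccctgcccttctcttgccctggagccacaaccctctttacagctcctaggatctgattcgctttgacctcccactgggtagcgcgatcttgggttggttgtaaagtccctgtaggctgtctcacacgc

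Of 4 motifs known from class I promoters and searched on both strands, 2 were found in these windows. The letters CCAAT occur in RT1-CE16 at -12 to -8 from the start site and in RT1-CE15 at -60 to -56, and again on the opposite strand at -39 to -35; 34.3% of 27457 RefSeq promoters of this length hold them. GGGGATTCC, a form of the class I enhancer A, occurs in RT1-CE16 at -131 to -123 and is held by 0.251% of promoters. Neither GAAANNGAA, used for the interferon response core (7.99% of promoters), nor TGACGTCA, used for the cyclic AMP response element (1.70%), is in any of the 3 windows. Only these letters were searched, so other forms of these elements may be present. Compared base by base without gaps, the RT1-CE16 window is 70% identical to that of RT1-CE15, 54% to that of RT1-CE12 and 89.6% to that of RT1-CE13, the closest of the RT1-CE windows in the table.

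The level of RT1-CE16 was 0 at the lowest, 0.55 at the median and 1.20 at the highest in low libraries, 3.16, 3.63 and 4.496 in intermediate libraries, and 4.52, 5.27 and 6.24 in high libraries. In CPM the medians were 0.461 in low, 11.4 in intermediate and 37.5 in high libraries, and 2 low libraries had under 0.5 estimated counts. The means were 0.55 ± 0.22 in low and 5.21 ± 0.39 in high libraries (SD), a difference of -4.66 that the selection fixes. Low libraries held a median of 9.73 estimated counts of the gene, against 767 in high libraries. A gap of 1.95 separates the highest low library from the next level, but the upper threshold falls inside a continuous run: 9 libraries lie within 0.1 under 4.5 and 9 within 0.1 above it, with 4.496 just outside and 4.520 just inside.

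**Figure D1:**
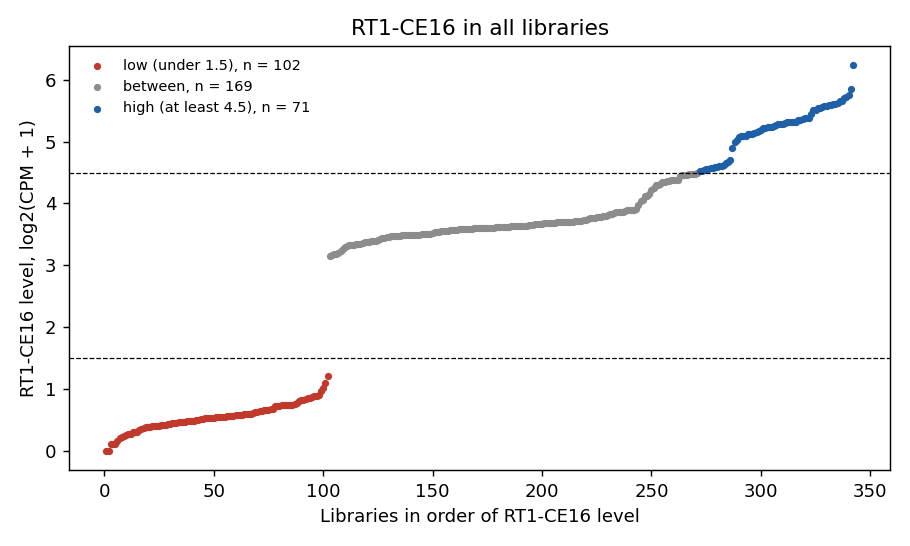
RT1-CE16 level, as log2 of CPM plus 1, on the y axis in all libraries in order of that level on the x axis, with dashed lines at the thresholds 1.5 and 4.5. The low libraries end at 1.20 below a wide gap, the intermediate ones run from 3.16 up to the upper threshold and the high ones (n = 71) start just above it.

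RT1-CE15 lies next to RT1-CE16 and showed that the high group pools libraries of different kinds. Its level was 0.22, 0.93 and 1.69 (lowest, median, highest) in low libraries, 0.21, 0.98 and 1.64 in intermediate libraries, and 0.55, 3.21 and 3.80 in high libraries. Every low and every intermediate library was under 2. Among the 54 high libraries with an RT1-CE16 level of at least 5, RT1-CE15 ran from 2.73 to 3.80 in all, whereas 15 of the 17 high libraries between 4.5 and 5 were under 2. The mean was 0.92 ± 0.25 in low libraries and 2.77 ± 0.95 in high libraries (SD, n = 71), a difference of -1.85 ± 0.10 (SE; limma, adjusted p = 2.06e-40), and every low library was under the median of the high ones. Reads of near-identical RT1 copies can be shared out between them by the counting, so this difference and those of the other RT1 genes are uncertain in their split between copies and, for RT1-CE genes, not independent of the gene that chose the libraries. In bulk tissue, fewer cells of a type and less RNA per cell cannot be told apart.

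**Figure D2:**
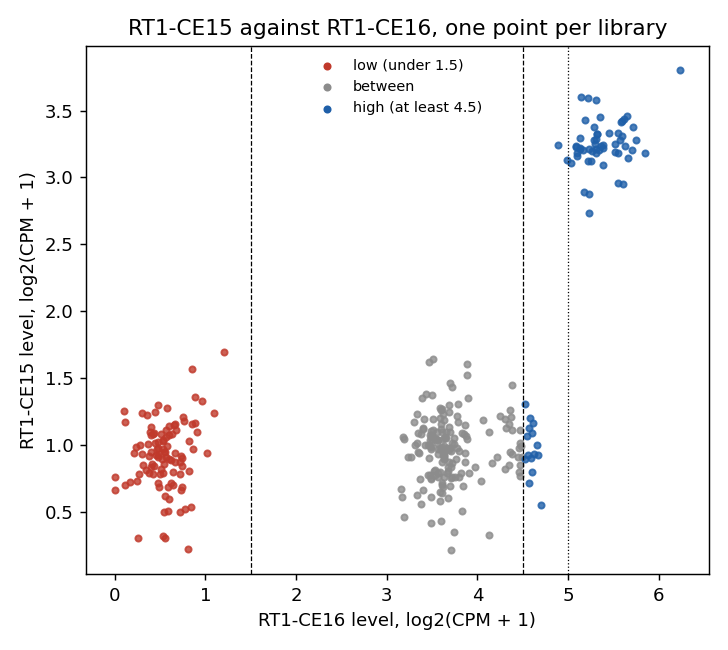
RT1-CE15 level on the y axis against RT1-CE16 level on the x axis, both as log2 of CPM plus 1, with a point for each library. Dashed lines stand at the thresholds 1.5 and 4.5 and a dotted line at 5; the 54 libraries at 5 or above all have an RT1-CE15 level of at least 2.73, and the 17 high libraries under 5 mostly sit with the low and intermediate ones.

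Library totals ran from 6620452 to 42980793 estimated counts in low libraries (median 22109736) and from 12653917 to 33735994 in high libraries (median 21679064). No 2 libraries had identical columns, and the correlation between libraries across genes had a median of 0.992. A single low library stands apart: its summed level of interferon-stimulated genes was 793 CPM, against at most 361 CPM in the other low libraries, and its class I sum without RT1-CE16 was 267.6 CPM, against at most 171.3 CPM. The highest low levels given for RT1-CE16, RT1-CE15, RT1-CE14, RT1-CE12 and RT1-A2 all come from it. Without that library 80 genes of chromosome 20 and 8 of other chromosomes passed the test. Libraries whose identifiers share their first 6 characters form blocks, the nearest thing to a batch in the labels, though the labels do not say what the characters mean; the 4 blocks with at least 5 low and 5 high libraries are used for values within blocks. Low libraries made up 21.4% to 51.5% of the 7 blocks with at least 8 libraries.

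Besides RT1-CE16, 19239 genes had a mean level of at least 0.5 and were tested, and 91 (0.473%) passed at an adjusted p under 0.05 (limma with Benjamini-Hochberg adjustment). Of 565 genes tested on chromosome 20, 81 (14.3%) passed, 41 higher (7.26%) and 40 lower (7.08%) in low libraries. Of 18674 genes on other chromosomes, 10 (0.0536%) passed, 7 higher (0.0375%) and 3 lower (0.0161%), and no other chromosome had more than 2; 6.41% of them had an unadjusted p under 0.05. A difference of at least 0.5 in level was reached by 18 (3.19%) of the genes of chromosome 20 that were tested, 11 higher and 7 lower in low libraries, and by 1 gene elsewhere (0.00536%). Of the 81, 62 are annotated as protein coding, 17 as long non-coding RNA and 24 carry an RT1 name. The differences were often small, with 31 of the 81 under 0.2. Within the 4 blocks, 74 of the 81 had the same sign in all 4, as had 17 of the 18 large ones. The blocks hold libraries of the comparison that selected these genes, so this agreement is not a replication. In no gene but RT1-CE16 were the groups free of overlap.

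The genes that passed lay close to RT1-CE16. Within 0.5 megabases (Mb) of its start site 27 of 55 genes tested passed (49.1%), from 0.5 to 1 Mb 24 of 52 (46.2%), from 1 to 2 Mb 22 of 68 (32.4%), from 2 to 5 Mb 7 of 68 (10.3%) and from 5 to 10 Mb 1 of 89 (1.12%). None of the 45 genes at 10 to 20 Mb passed, nor any farther away. The outermost were LOC120098879, with its start site at 43059, and LOC102548069, with its start site at 8645757, which is 5.38 Mb from RT1-CE16; no gene tested beyond it passed. LOC120098879 averaged 1.99 ± 0.27 in low libraries and 2.65 ± 0.28 in high libraries (SD), a difference of -0.67 ± 0.04 (SE; adjusted p = 1.44e-32), although most genes between it and the class I cluster did not pass.

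**Figure D3:**
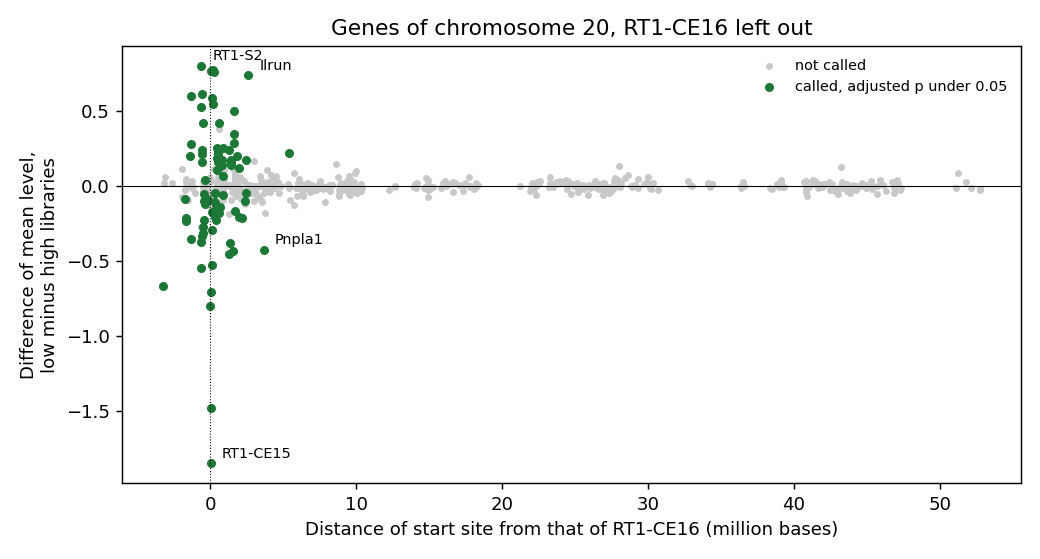
Difference of mean level, low minus high libraries, on the y axis for the 565 genes tested on chromosome 20 besides RT1-CE16, against the distance of each start site from that of RT1-CE16 in Mb on the x axis. Green points are the 81 genes that passed the test; they lie between the start of the chromosome and 5.38 Mb beyond RT1-CE16, above as well as below 0, while grey points stay near 0 farther out.

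Among the immediate neighbours the sides differed in count: 2 of the 10 nearest genes tested before RT1-CE16 passed and 9 of the 10 nearest after it, all but RT1-CE13. Before it, Ddr1 (a collagen receptor), Gtf2h4 (a subunit of the general transcription factor TFIIH), Cdsn (corneodesmosin of the skin), Cchcr1 and Tcf19 had differences between -0.07 and 0.06 that did not pass. Vars2, the mitochondrial valyl-tRNA synthetase, was lower by a small amount, with 4.84 ± 0.13 in low libraries and 4.93 ± 0.14 in high libraries (SD; difference -0.09 ± 0.02, SE; adjusted p = 0.00383). With the high threshold at 5 its difference was also -0.09 and did not pass (adjusted p = 0.0538). The other gene that passed on that side, the non-coding RNA LOC108353253, starts inside RT1-CE16 on the opposite strand and also overlaps RT1-CE15. It averaged 1.01 ± 0.25 in low libraries and 1.81 ± 0.59 in high libraries (difference -0.80 ± 0.07; adjusted p = 3.73e-22). LOC120098828 is a non-coding RNA that overlaps RT1-CE15, RT1-CE13, RT1-CE12, RT1-CE10 and RT1-CE11 on the opposite strand. It also overlaps RT1-CE14, whose strand is not given here, and the non-coding RNAs LOC120098829 and LOC120098832 on its own strand. LOC120098828 averaged 1.18 ± 0.27 in low libraries and 2.66 ± 1.01 in high libraries (difference -1.48 ± 0.10; adjusted p = 6.74e-28). No source used here states the strand setting of the counting, so reads of these RNAs and of the RT1 genes they overlap cannot be told apart.

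Of the 13 RT1-CE genes besides RT1-CE16, 6 passed: RT1-CE15, RT1-CE14, RT1-CE11 and RT1-CE10 were lower and RT1-CE12 and RT1-CE7 higher in low libraries. RT1-CE13, RT1-CE5, RT1-CE4 and RT1-CE3 were tested and did not pass, and RT1-CE1, RT1-CE2 and RT1-CE6 were under the level minimum. The annotated RT1-CE12 overlaps RT1-CE14 and RT1-CE13, and RT1-CE11 overlaps RT1-CE10. Differences of overlapping genes may therefore not be independent, and sharing of reads among them was not tested. For comparison, 14.3% of all genes tested on chromosome 20 passed, and 49.1% of those within 0.5 Mb of RT1-CE16. Both shares are of genes tested, so RT1-CE1, RT1-CE2 and RT1-CE6 are not to be counted beside them. RT1-CE14, annotated as a miscellaneous RNA, had levels of 0.18, 0.52 and 1.47 in low libraries (lowest, median, highest) and of 0, 1.41 and 2.22 in high libraries. It stayed under 1 in every intermediate library and was at least 1.03 in the 54 high libraries at 5 or above, so it followed the same division as RT1-CE15 (difference -0.71 ± 0.06; adjusted p = 2.13e-22). RT1-CE11 averaged 1.33 ± 0.32 in low libraries and 1.85 ± 0.42 in high libraries (difference -0.52 ± 0.06; adjusted p = 2.97e-14), with a mean of 1.27 ± 0.30 in the high libraries under 5 and of 2.04 ± 0.25 in those at 5 or above.

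RT1-CE12 ran the other way, with levels of 0.83, 1.35 and 2.36 in low libraries (lowest, median, highest), 0.13, 0.87 and 1.84 in intermediate libraries, and 0.20, 0.75 and 1.78 in high libraries. Every low library was above the median of the high ones, though the ranges overlap (difference 0.59 ± 0.05; adjusted p = 2.93e-24). The non-coding RNA LOC120098829, which lies inside RT1-CE12 on the opposite strand, went with it at 1.49 ± 0.20 in low libraries and 0.72 ± 0.37 in high libraries (difference 0.77 ± 0.04; adjusted p = 2.27e-37). RT1-CE7 had a median of 0.80 in low libraries and of 0 in high libraries, and was under 0.5 in 33 low libraries (32.4%) and 59 high libraries (83.1%) (difference 0.55 ± 0.07; adjusted p = 5.94e-10). It overlaps RT1-CE5 and RT1-CE4, which did not pass. The non-coding RNAs LOC120098833 and LOC134483853, beyond RT1-CE7, were higher in low libraries by 0.78 ± 0.05 and 0.76 ± 0.04 (adjusted p = 6.09e-35 and 2.17e-39).

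Summed over the 13 RT1-CE genes without RT1-CE16, the median was 23.9 CPM in low, 23.97 CPM in intermediate and 31.5 CPM in high libraries. With RT1-CE16 included it was 24.3 CPM in low, 36.1 CPM in intermediate and 70.1 CPM in high libraries. The 37 class I genes of the list without RT1-CE16 include these 13. Their sum had a median of 115.98 CPM in low libraries (96.2 to 267.6), 108.9 CPM in intermediate libraries and 113.6 CPM in high libraries (98.6 to 144.5). This sum adds 11 genes that were higher and 8 that were lower in low libraries, so opposite differences can cancel in it.

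Over the whole class I list, 27 of the 37 members besides RT1-CE16 were tested and the other 10 were under the level minimum. Of the 27, 11 were higher and 8 lower in low libraries and 8 did not pass, with a median difference of 0.04, beside 0.003 over all genes tested. The share that passed was 70.4%, beside 14.3% over chromosome 20 and 41.7% over all genes tested within 2 Mb of RT1-CE16. Their median absolute difference was 0.33, beside 0.0156 over the genes tested on other chromosomes.

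In the group of class I genes before RT1-CE16, RT1-S2 had levels of 0, 2.28 and 2.98 in low libraries (lowest, median, highest), 0, 1.82 and 2.52 in intermediate libraries, and 0, 1.62 and 2.65 in high libraries. It was under 1 in 5 low (4.90%), 51 intermediate (30.2%) and 21 high libraries (29.6%), and the high ones came mostly from one end: 15 of the 17 under 5 and 6 of the 54 at 5 or above (difference 0.80 ± 0.11; adjusted p = 1.25e-08). With the high threshold set at 5, the difference of RT1-S2 was 0.46 (adjusted p = 0.00426). RT1-T24-3 averaged 2.96 ± 0.36 in low libraries and 2.34 ± 0.34 in high libraries (difference 0.62 ± 0.05; adjusted p = 5.08e-20). RT1-N2 averaged 1.70 ± 0.53 in low libraries and 1.17 ± 0.55 in high libraries (difference 0.53 ± 0.08; adjusted p = 4.52e-07). RT1-M1-2 averaged 1.65 ± 0.54 in low libraries and 1.05 ± 0.74 in high libraries (difference 0.60 ± 0.10; adjusted p = 9.03e-07). RT1-M1-2 was the large difference without a constant sign, running from -0.16 to 0.99 within the 4 blocks, and it was 0.39 with the high threshold at 5.

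RT1-O1l1 and RT1-A3 had the lowest means in low and the highest in intermediate libraries. RT1-O1l1 fell into separate levels: it was under 2 in 67 low (65.7%), 1 intermediate (0.592%) and 28 high libraries (39.4%). Its medians were 1.37 in low, 2.84 in intermediate and 2.58 in high libraries. Intermediate libraries ran from 1.96 to 4.10, a spread that the cut at 2 does not divide. The annotated RT1-O1l1 spans chr20:2627434-2664895, which holds RT1-S2, RT1-N2 and H2-Q7-ps1. Differences of these genes may therefore not be independent, and sharing of reads among them was not tested. The RT1-O1l1 difference of -0.54 ± 0.13 (SE; adjusted p = 0.0127) did not pass with the high threshold at 5, where it was -0.24 (adjusted p = 0.751). RT1-A3, of the RT1-A cluster, had means of 1.12 ± 0.51 in low, 2.04 in intermediate and 1.55 ± 0.76 in high libraries (difference -0.43 ± 0.10; adjusted p = 0.00265), and did not pass with the threshold at 5 either (-0.18; adjusted p = 0.701).

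RT1-A2 and RT1-A1, also of that cluster, were higher in low libraries. RT1-A2 had levels of 2.27, 3.28 and 4.74 in low libraries (lowest, median, highest) and of 1.23, 2.81 and 3.64 in high libraries (difference 0.51 ± 0.07; adjusted p = 3.14e-09). It was at least 3 in 83 low, 12 intermediate and 29 high libraries, and under 3 in 18.6% of low, 92.9% of intermediate and 59.2% of high libraries, and its difference with the threshold at 5 was 0.26 (adjusted p = 0.00217). RT1-A1 averaged 0.77 ± 0.42 in low libraries and 0.42 ± 0.31 in high libraries (difference 0.35 ± 0.06; adjusted p = 4.22e-06). RT1-N3 was lower in low libraries, at 2.48 ± 0.18 against 2.81 ± 0.24 in high libraries (difference -0.33 ± 0.03; adjusted p = 1.74e-17), as were H2-Q7-ps1 (-0.37 ± 0.08; adjusted p = 0.00165) and H2-M10.6l (-0.35 ± 0.05; adjusted p = 2.66e-07), named for mouse class I genes. H2-Q7-ps1 did not pass with the threshold at 5 (-0.17; adjusted p = 0.598).

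**Figure D4:**
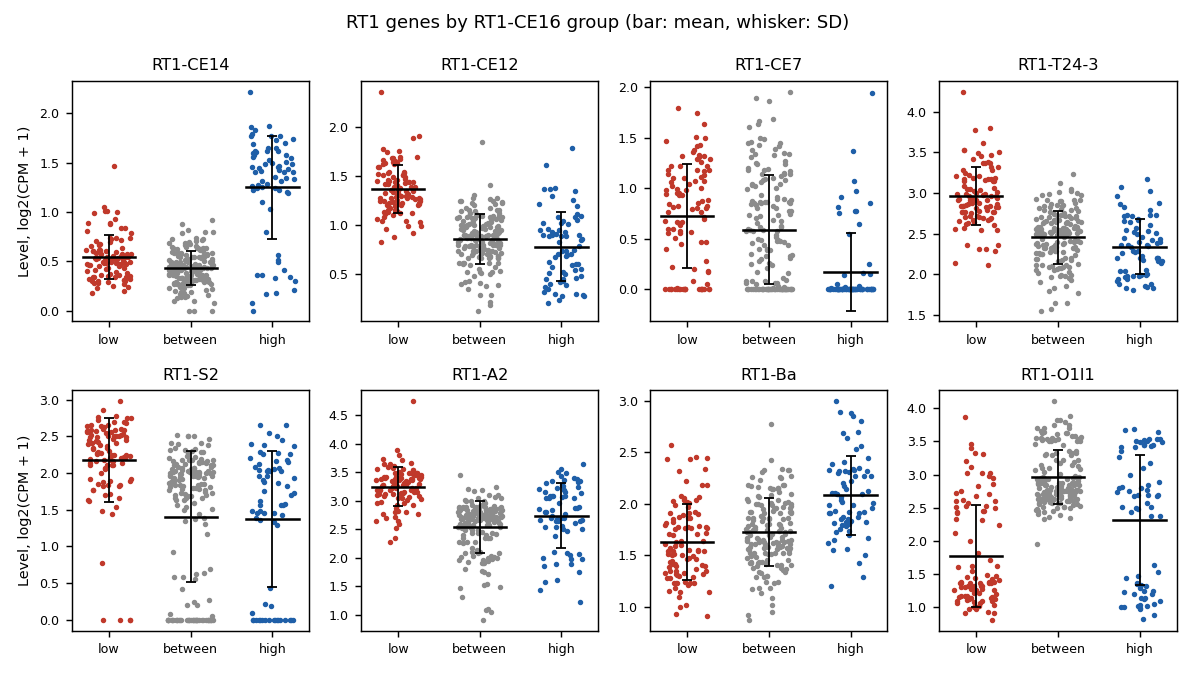
Levels, as log2 of CPM plus 1, of 8 RT1 genes on the y axes in low, intermediate (marked between) and high (n = 71) libraries on the x axes, with a point per library, bars at the mean and whiskers of 1 SD. RT1-CE14 divides the high libraries, and RT1-CE12 and RT1-T24-3 are highest in the low ones. RT1-O1l1 is under 2 in 67 low and 28 high libraries and in 1 intermediate library.

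Class II genes went in both directions. Of 10 in the list 7 were tested, of which 3 were higher and 2 lower in low libraries, with a median difference of -0.0003. The 5 that passed are 71.4% of the 7, beside 14.3% over chromosome 20 and 32.4% at 1 to 2 Mb, where all 7 lie. The chains of the RT1-B molecule were lower: RT1-Ba, its alpha chain, had levels of 0.92, 1.56 and 2.57 in low libraries (lowest, median, highest) and of 1.20, 2.04 and 2.99 in high libraries (difference -0.45 ± 0.06; adjusted p = 3.69e-10). RT1-Bb, its beta chain, averaged 1.34 ± 0.37 in low libraries and 1.72 ± 0.38 in high libraries (difference -0.38 ± 0.06; adjusted p = 1.73e-07). RT1-Db2, a beta chain gene of the RT1-D molecule, was higher (0.25 ± 0.03; adjusted p = 3.59e-09), as were RT1-DMa and RT1-DMb, which help load peptides on class II molecules (0.16 and 0.14; adjusted p = 2.04e-05 and 0.0137). RT1-Da and RT1-Db1 did not pass. RT1-Db1 had a difference of -0.19 (adjusted p = 0.136), and without the libraries of lowest totals it passed as lower (-0.22; adjusted p = 0.0164).

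Of 20 antigen processing genes tested, Tap2 and Psmb9, both on chromosome 20 among the class II genes, were higher in low libraries and none was lower, with a median difference of 0.02. They are 40% of the 5 members tested on chromosome 20, beside 14.3% over chromosome 20 and 32.4% over all genes at 1 to 2 Mb. Tap2, a subunit of the peptide transporter of the endoplasmic reticulum, averaged 3.75 ± 0.16 in low libraries and 3.57 ± 0.13 in high libraries (difference 0.18 ± 0.02; adjusted p = 1.15e-09). Psmb9, a catalytic subunit of the immunoproteasome, averaged 1.83 ± 0.23 in low libraries and 1.67 ± 0.25 in high libraries (difference 0.16 ± 0.04; adjusted p = 0.00432). Neighbouring Tap1, the partner of Tap2, had a difference of -0.09 (adjusted p = 0.578), and Tapbp, the chaperone tapasin, of 0.05 (adjusted p = 0.483), which passed only with 10 principal components removed (0.07; adjusted p = 0.0458). B2m, the partner chain of all class I molecules on chromosome 3, had 7.47 ± 0.16 in low libraries and 7.46 ± 0.12 in high libraries (difference 0.01 ± 0.02; adjusted p = 0.940), and Nlrc5, the class I transactivator on chromosome 19, had a difference of 0.06 ± 0.04 (adjusted p = 0.789). None of the 15 tested members outside chromosome 20 passed.

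In the class III region 42 listed genes were tested, 5 higher and 8 lower in low libraries, with a median difference of 0.009 and none as large as 0.5. The share that passed was 30.95%, beside 14.3% over chromosome 20, 49.1% within 0.5 Mb and 46.2% at 0.5 to 1 Mb, the distances at which all 42 lie. Fkbpl, an FK506-binding protein relative, was higher at 3.75 ± 0.13 in low libraries against 3.50 ± 0.14 in high libraries (difference 0.25 ± 0.02; adjusted p = 4.14e-23), and its differences within the 4 blocks ran from 0.23 to 0.28. Clic1, an intracellular chloride channel protein, was higher by 0.21 ± 0.03 (adjusted p = 5.28e-09). Hspa1a, an inducible Hsp70, had medians of 2.54 in low and 2.28 in high libraries, with single low libraries up to 5.73 (difference 0.43 ± 0.10; adjusted p = 0.00456), and with a term for the identifier block it was 0.37 and did not pass (adjusted p = 0.0590). Hspa1b, its near-identical neighbour, had a difference of 0.39 ± 0.10 and did not pass (adjusted p = 0.0586), but it passed with 10 principal components removed (0.36; adjusted p = 9.56e-07) and with a pseudocount of 0.1 (0.41; adjusted p = 0.0470). Lower in low libraries were Ltb, the membrane partner of lymphotoxin (-0.23 ± 0.03; adjusted p = 2.36e-07), Ddx39b, an RNA helicase of splicing and export (-0.20 ± 0.02; adjusted p = 3.65e-19), the Hsp70 relative Hspa1l (-0.18) and the lysosomal sialidase Neu1 (-0.14).

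Of the single-copy framework genes that lie between the class I clusters 26 were tested, of which 6 were lower and 1 higher in low libraries, with a median difference of -0.01. The share that passed was 26.9%, beside 14.3% over chromosome 20 and 41.7% over all genes tested within 2 Mb, where all 26 lie. Mrps18b, a protein of the mitochondrial ribosome, averaged 4.34 ± 0.16 in low libraries and 4.56 ± 0.11 in high libraries (difference -0.22 ± 0.02; adjusted p = 3.98e-16). Mdc1, a mediator of the DNA damage response, and Atat1, the alpha-tubulin acetyltransferase, were lower by small amounts (-0.12 and -0.10; adjusted p = 1.19e-05 and 3.51e-09), and Flot1, a membrane raft protein, was the member that was higher (0.04; adjusted p = 0.00987). Among 25 genes of the extended class II region, Vps52, of the endosome tethering complexes (-0.17; adjusted p = 8.58e-07), and Ip6k3, an inositol hexakisphosphate kinase (-0.21; adjusted p = 7.59e-08), were lower and none was higher, a share of 8.0% beside 32.4% over all genes at 1 to 2 Mb, where all but 2 of the 25 lie. With the high threshold at 5 the difference of Vps52 was -0.10 and did not pass (adjusted p = 0.0519).

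Farther along, Ilrun, a regulator of inflammation and lipid metabolism whose start site lies at 5878082, had, after RT1-S2, the largest difference among genes higher in low libraries that carry more than a locus identifier. Its level was 7.29, 8.34 and 8.47 in low libraries (lowest, median, highest), 7.24, 8.35 and 8.58 in intermediate libraries, and 1.20, 7.44 and 8.47 in high libraries. No library lay between 7.50 and 8.17, and the level was below that gap in 1 low (0.980%), 12 intermediate (7.10%) and 44 high libraries (61.97%). Of those 44, 42 averaged 7.38 ± 0.06 (SD) and 2 were near 0 at 1.20 and 1.25; the 27 high libraries above the gap averaged 8.38 ± 0.05. The difference of means was 0.74 ± 0.12 (SE; adjusted p = 8.57e-07), which mixes these levels.

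Rps10 encodes a protein of the small ribosomal subunit and spans chr20:5696135-5700863, before Ilrun at chr20:5811721-5878082. Rps10 and 2 of its copies on other chromosomes followed a like division. Rps10 was looked at after the copies had been seen. Rps10 had levels of 6.45, 6.78 and 6.97 in low libraries and of 6.16, 6.55 and 7.05 in high libraries (difference 0.18 ± 0.02; adjusted p = 7.86e-10). Rps10l6, a copy on chromosome 15, had levels of 0.66, 1.29 and 3.23 in low libraries, 0.25, 1.23 and 3.06 in intermediate libraries, and 0.87, 2.70 and 3.68 in high libraries (difference -0.86 ± 0.10; adjusted p = 2.57e-12). It was at least 2 in 7 low, 3 intermediate and 44 high libraries. Rps10-ps20, on chromosome 10, averaged 0.64 ± 0.30 in low libraries and 1.03 ± 0.43 in high libraries (difference -0.39 ± 0.05; adjusted p = 1.76e-08). The copies together had a median of 2.04 CPM in low libraries and 6.89 CPM in high libraries, while Rps10 and its copies together had 110.9 CPM in low libraries and 100.7 CPM in high libraries. Reads of Rps10 and its copies may have been shared out by the counting, so their split is uncertain.

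Libraries were also counted by RT1-CE15 at 2 or above, Ilrun under 7.9 and Rps10l6 at 2 or above, levels chosen after the values were seen. Of the 56 high libraries with RT1-CE15 at 2 or above, 42 had both the lower Ilrun and the higher Rps10l6 level, 2 had the higher Rps10l6 level alone and 12 had neither. Of the 15 other high libraries, 2 had the lower Ilrun level and none the higher Rps10l6 level. Among low libraries 95 had none of the 3 states, 6 had the higher Rps10l6 level alone and 1 had it together with the lower Ilrun level. Among intermediate libraries 11 had the lower Ilrun level alone, 2 the higher Rps10l6 level alone, 1 both and the others none.

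**Figure D5:**
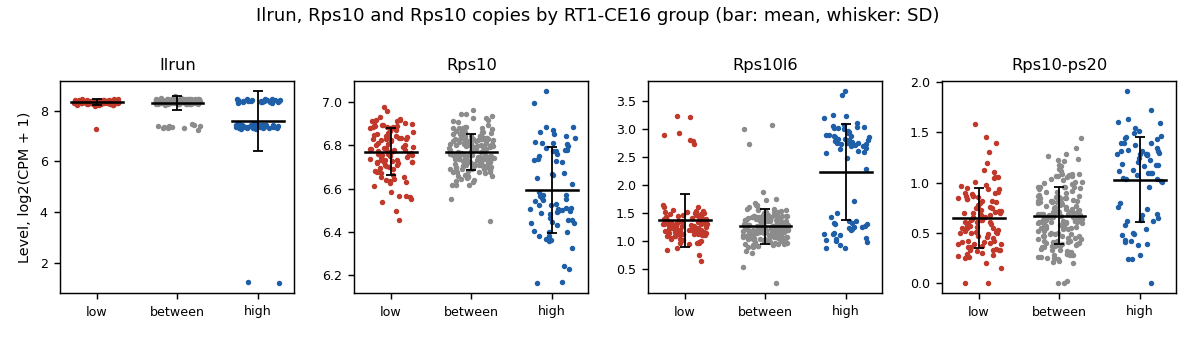
Levels, as log2 of CPM plus 1, of Ilrun, Rps10, Rps10l6 and Rps10-ps20 on the y axes in low, intermediate (marked between) and high (n = 71) libraries on the x axes, with a point per library, bars at the mean and whiskers of 1 SD. Ilrun is under 7.9 in 44 high libraries and in 1 low library, and Rps10l6 is at least 2 in 44 high and 7 low libraries.

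Pnpla1, a lipid enzyme of the patatin-like family needed for the skin barrier, was the farthest named gene of the region to pass. Its level was 1.56, 2.29 and 3.61 in low libraries (lowest, median, highest), 1.53, 2.86 and 4.02 in intermediate libraries, and 1.83, 2.52 and 3.80 in high libraries. The ranges overlap almost wholly, and 85.3% of low libraries were under the median of the high ones (difference -0.42 ± 0.06; adjusted p = 1.58e-07).

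On other chromosomes, apart from the Rps10 copies, the genes that passed had small differences. LOC120102866, a non-coding RNA on chromosome 5, was higher by 0.22 ± 0.04 (adjusted p = 6.65e-07). Mslnl, a mesothelin relative, was higher by 0.19 ± 0.05, Cnbd2, a cyclic nucleotide-binding domain protein, by 0.14 ± 0.04, Sp140, a nuclear body protein of immune cells, by 0.12 ± 0.03 and Anxa4, an annexin, by 0.07 ± 0.02 (adjusted p = 0.0288, 0.0217, 0.0453 and 0.0114). Ephb1, an ephrin receptor of neurons, was lower, with 5.75 ± 0.08 in low libraries and 5.80 ± 0.07 in high libraries (difference -0.05 ± 0.01; adjusted p = 0.0433). Sp140 had the same sign as the pooled value in only 2 of the 4 blocks. LOC102547700 and LOC134482731 were each higher by 0.12. With a block term Mslnl, Sp140, Anxa4, Ephb1 and LOC102547700, 5 of the 10 genes, did not pass (adjusted p = 0.0828, 0.187, 0.0845, 0.0642 and 0.118). Their differences were then 0.18, 0.10, 0.06, -0.05 and 0.12, against 0.19, 0.12, 0.07, -0.05 and 0.12 without it. With the high threshold at 5, Mslnl, Sp140, Ephb1, LOC102547700 and LOC134482731 did not pass.

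The intermediate libraries, which the comparison did not use, had a mean between those of the low and high libraries for 10 of the 18 large differences on chromosome 20. RT1-CE12, RT1-T24-3, LOC120098829, LOC120098833, LOC134483853 and LOC120098879 were among these; for LOC120098879 the means were 1.99 in low, 2.42 in intermediate and 2.65 in high libraries. RT1-CE15, Ilrun, RT1-CE7 and RT1-S2 were between as well, RT1-CE15 and Ilrun close to the low mean and RT1-S2 close to the high one. For the other 8, among them RT1-A2, RT1-N2, RT1-M1-2 and RT1-O1l1, the intermediate mean lay outside. These means pool unlike bands of RT1-CE16, so a mean between does not show a gradual change with its level. RT1-CE12 averaged 0.91 in intermediate libraries under 4 and 0.55 in those from 4 to 4.5. It averaged 0.50 in high libraries under 5 and 0.86 in those at 5 or above. In the same bands RT1-S2 averaged 1.62, 0.31, 0.30 and 1.72, and LOC120098879 2.36, 2.69, 2.55 and 2.69. Over all libraries the 8 genes most like RT1-CE16, ranked by the size of the correlation of levels, were LOC120098829, LOC134483853, LOC120098833, RT1-CE12, LOC120098879, RT1-T24-3, LOC134483847 and RT1-CE15; the coefficients are not given, since RT1-CE16 falls into separate levels.

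Among the lists of cell type and immune state genes, no member on another chromosome passed the test; under the alternatives Opalin, an oligodendrocyte membrane protein, was the only one that did, with 10 principal components removed (0.07; adjusted p = 0.0147, against 0.06 and 0.775). Of 22 interferon-stimulated genes tested none passed, with a median difference of 0.06 and summed levels of 174.9 to 793 CPM (median 213.5) in low libraries and 166.4 to 294.2 CPM (median 208.6) in high libraries. Their median absolute difference was 0.06 as well, beside 0.0156 over the genes tested on other chromosomes, so the members mostly leaned higher in low libraries. Of 14 microglial genes Aif1 passed (-0.12 ± 0.03; adjusted p = 0.00432), and of 12 oligodendrocyte genes Mog passed (-0.09 ± 0.02; adjusted p = 0.000334); both lie on chromosome 20 in the region. With the high threshold at 5 the difference of Aif1 was -0.11 and did not pass (adjusted p = 0.0646). The summed microglial level was 311.5 to 500.3 CPM (median 352.2) in low libraries and 305.2 to 406.2 CPM (median 358.6) in high libraries. None of the genes tested of leukocytes (3), astrocytes (12), neurons (12), endothelium and pericytes (12), choroid plexus (12), meningeal fibroblasts (12), red blood cells (9) or immediate early genes (12) passed. The choroid plexus genes mostly leaned lower in low libraries, with a median difference of -0.04 and a median absolute difference of 0.04. The neuronal genes had a summed median of 10618 CPM in low libraries and 10643 CPM in high libraries. The defining genes of brain tissue were therefore abundant in both. Xist and Ddx3y, which mark sex, did not pass (adjusted p = 0.945 and 0.950). Xist averaged 5.17 ± 4.51 in low and 4.81 ± 4.53 in high libraries (SD). With this spread the test cannot show that sex was balanced. Within the identifier blocks the difference of Xist ran from -4.54 to 1.57 and that of Ddx3y from -0.98 to 2.97. Balance of sex within blocks was not tested.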

How the data were processed

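PolyA RNA of whole brain hemispheres was sequenced. Kallisto quantified the reads, per the submitters' processing notes. The version and strand setting were not given in the sources used here. Log2 values that the authors deposited are of estimated counts plus 1 for 38354 genes and 342 libraries of 352 labelled samples, by file name on the rn8 build, and 38278 names matched RefSeq genes on GRCr8 with the start site at a gene end. Values were turned back, scaled to CPM per library, and log2 of CPM plus a pseudocount of 1 was taken as the level, so differences understate the change of low genes. As values were not counts, limma 3.58.1 (R 4.3.3) with a mean-variance trend compared the 102 low with the 71 high libraries (169 lie between) over genes of mean level of at least 0.5, with Benjamini-Hochberg adjustment over all of them and a threshold of 0.05; a large difference is 0.5 or more. Library totals of 5418230 to 42980793 estimated counts set the precision of low genes. The fit was tested on simulated data with 200 changed genes. Correlated genes, blocks of identifiers and bands of RT1-CE16 are descriptions.

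Genes named are RT1-CE16 and RT1-CE15; up to 20 on chromosome 20 and up to 15 elsewhere of largest difference among those that passed, without bare locus names; the 10 nearest tested on each side; up to 4 members of each list, and B2m, Tap1, Tap2, Tapbp and Nlrc5; and the 8 most like RT1-CE16. Others, such as Rps10, Clic1, Ddx39b, Hspa1l, Neu1, RT1-N3, RT1-DMa, RT1-DMb, other locus identifiers, Xist and Ddx3y, were chosen after their values were seen. The members and lists were chosen with earlier results of these data known. Alternatives were a pseudocount of 0.1, median ratio scaling, a level minimum of 1, no minimum except that 20% of libraries are above 0, a block term (fitted to 97 low and 71 high libraries), 10 principal components, and exclusion of the 5% of libraries with the lowest totals; a high threshold of 5, exclusion of libraries whose names the labels mark as corrected, and exclusion of the low library of highest interferon sum were added after seeing the data.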

Additional observations from a re-analysis of the deposited data

How the results depend on the processing

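No paired analysis was possible because all libraries form a single labelled group and their replicate numbers only name them. Of the 81 genes that passed on chromosome 20, between 76 and 81 still passed under the alternatives that tested all of them, except that 63 did with the high threshold at 5 (67 passed in all), and none changed sign. Genes that passed on other chromosomes numbered 42 with 10 principal components removed, against 10, and 8 to 12 under the other alternatives. Of the 10 themselves, 5 still passed with a block term, 5 with the high threshold at 5, and 7 to 10 under the other alternatives that tested all of them. With a pseudocount of 0.1, 31 genes on chromosome 20 and 2 elsewhere had a large difference, against 18 and 1; that pseudocount stretches the differences of low genes by its construction. With the high threshold at 5, Vars2 was -0.09, Vps52 -0.10 against -0.17 and Aif1 -0.11 and none of these passed (adjusted p = 0.0538, 0.0519 and 0.0646), Tcf19 did (-0.15; adjusted p = 0.000209) and RT1-CE10 was -0.45 against -0.29. Cnbd2 did not pass without the libraries whose names were corrected (adjusted p = 0.160), and Ephb1 and Sp140 did not pass under several alternatives. Hspa1b, Opalin and Tapbp passed with 10 principal components removed, Hspa1b also with a pseudocount of 0.1, and RT1-Db1 without the libraries of lowest totals. The cause of these changes was not tested.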
